A study of Mus musculus with 4 samples.

Results

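Heat shock proteins and their partner chaperones were followed on 4 one-colour microarrays of mouse blood stem and progenitor cells. The group comprised 10 listed genes, chosen by name, and its probes were all non-control probes carrying one of those names. Probes were found for 9 of the 10 genes, 14 probes in all of 55681 non-control probes on each array, and 14 of 14 were well above background on all 4 arrays. Hspa1b had no probe of its own name. The genes were Hspa1a, Hspa8, Hsph1, Dnajb1, Hsp90aa1, Hsp90ab1, Hspd1, Hspe1 and Hspa5.

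The arrays held 4 groups with 1 array each: cKO LT-HSC, WT LT-HSC, cKO MPP and WT MPP. Donors were 10-week-old male C57BL/6J mice of the Ly5.2 type, either with a conditional knockout (cKO) of the stress kinase p38 alpha or wild type (WT). LT-HSC (long-term haematopoietic stem cells) were sorted as CD34- Flt3- LSK marrow cells, and MPP (multipotent progenitors) as CD34+ Flt3+ LSK cells, LSK being marrow without lineage markers that carries Sca-1 and Kit. In all 4 groups the cells received the dye CFSE and were injected into Ly5.1 congenic mice given 9.5 Gy of radiation. CFSE-positive cells were sorted from the recipients' marrow after 16 h. The sources used here do not give the Cre driver, its induction or the number of mice behind an array. The study's title puts p38 alpha, purine metabolism and entry into the cell cycle at the centre of the comparison.

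Heat shock proteins of the Hsp70 class bind unfolded stretches of client proteins and release them in an ATP-driven cycle. J-domain proteins such as Dnajb1 deliver clients and trigger ATP hydrolysis, and nucleotide exchange factors such as Hsph1 reset the cycle. Hsp90 acts later on kinases and hormone receptors, the Hspd1 and Hspe1 chaperonin folds proteins inside mitochondria, and Hspa5 (BiP) works in the endoplasmic reticulum. The factor Hsf1 drives many of the cytosolic and mitochondrial genes when proteins misfold, through repeats of the unit GAA in alternating orientation, whereas Hspa5 answers to stress in the endoplasmic reticulum. In mammals some members (Hspa8, Hsp90ab1) are made constitutively and Hspa1a and Hspa1b are the classic inducible pair.

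The Hspa1a probe is shown first because it limits what its value can mean. It lies on mm9 chr17:35107117-35107176 (minus strand), its accession list covers both Hspa1a and Hspa1b, and reads 5′ to 3′ as follows.
Hspa1a probe: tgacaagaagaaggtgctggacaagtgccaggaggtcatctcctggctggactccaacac
Signal from these neighbouring copies could not be told apart, and the value is called Hspa1a below only because the array does so.

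Promoters were available from RefSeq (build GRCm38.p6) for 7 of the 10 genes, as windows of 250 bases before and 50 bases after a gene's start. Both strands were searched for the paired units GAANNTTC and TTCNNGAA, for 3 such units in alternating orientation with the same spacing, and for CCAAT and CCACG held 9 bases apart, the element known from endoplasmic reticulum stress genes. The paired units are contained in the longer ones. The windows below show each kind of match found, with every match in capitals and overlapping matches run together.
Hspe1 (chr1:55087898-55088197, plus strand): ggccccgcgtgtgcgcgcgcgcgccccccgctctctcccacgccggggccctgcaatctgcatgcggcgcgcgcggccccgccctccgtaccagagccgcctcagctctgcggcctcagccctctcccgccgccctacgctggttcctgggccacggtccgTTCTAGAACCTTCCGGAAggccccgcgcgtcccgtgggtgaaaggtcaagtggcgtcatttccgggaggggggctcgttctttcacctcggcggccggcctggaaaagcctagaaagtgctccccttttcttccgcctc
Hsph1 (chr5:149636287-149636586, minus strand): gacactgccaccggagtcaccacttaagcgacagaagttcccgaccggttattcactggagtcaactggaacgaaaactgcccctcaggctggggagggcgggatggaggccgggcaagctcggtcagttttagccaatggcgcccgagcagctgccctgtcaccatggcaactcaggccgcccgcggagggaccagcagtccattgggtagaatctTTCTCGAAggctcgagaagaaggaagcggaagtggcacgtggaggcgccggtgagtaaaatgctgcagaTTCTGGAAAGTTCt
Hspa1a (chr17:34972107-34972406, minus strand): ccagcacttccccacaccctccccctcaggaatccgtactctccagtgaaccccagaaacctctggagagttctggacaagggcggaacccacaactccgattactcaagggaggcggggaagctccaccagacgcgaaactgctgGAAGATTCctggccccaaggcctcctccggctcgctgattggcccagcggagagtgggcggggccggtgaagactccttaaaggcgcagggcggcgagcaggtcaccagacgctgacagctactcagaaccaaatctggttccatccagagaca
Hspa5 (chr2:34771840-34772139, plus strand): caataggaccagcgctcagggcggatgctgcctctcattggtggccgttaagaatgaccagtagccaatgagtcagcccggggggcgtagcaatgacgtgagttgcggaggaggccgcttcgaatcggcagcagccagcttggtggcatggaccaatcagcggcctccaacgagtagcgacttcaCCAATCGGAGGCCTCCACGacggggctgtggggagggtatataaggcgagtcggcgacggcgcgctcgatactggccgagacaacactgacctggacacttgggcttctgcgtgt

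Hspe1 and Hspd1 lie head to head on chromosome 1, and the same 18 bases (chr1:55088059-55088076) fell in windows of both, beginning 89 bases before the Hspe1 start and 144 bases before one of the Hspd1 starts. The other Hspd1 window held no match. In the Hsph1 window shown, a pair of units began 33 bases before the start and a run of 3 units began 37 bases after it. Counted from the start of the other Hsph1 window, the same matches began 54 bases before and 16 bases after. The Hspa1a and Hspa1b windows each held GAANNTTC once, 104 bases before the start, and were 98.7% identical, differing at 4 of 300 bases. The CCAAT and CCACG element was found in the Hspa5 window, 65 bases before the start, and the windows of Dnajb1 held none of these motifs. Among all 32851 promoter windows, 15.06% held a paired unit in either order, 0.6027% held 3 alternating units and 0.1187% held the CCAAT and CCACG element. A match describes letters in a window, and binding was not measured here.

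Levels below are relative levels: the scanner's processed signal of a probe divided by the 75th percentile of its array, which was 203.7 for cKO LT-HSC, 218.0 for WT LT-HSC, 177.9 for cKO MPP and 181.4 for WT MPP. Differences are log2 differences of these levels. The value after ± is the error that the scanner software assigns to the difference, which does not cover cells, sorts or RNA amplification. Between 2 arrays it was 0.20 at every member probe but that of Hspa1a (0.22 to 0.24). It is thus nearly a constant and serves below as a yardstick of size, not as a noise measured for each probe. With 1 array per group no difference between 2 arrays has a replicate check, so none carries a p-value. Where a gene had several probes, the brightest over the 4 arrays stands for it. In these bulk samples, fewer cells of a type and less RNA per cell cannot be told apart.

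Among the cytosolic Hsp70 genes, Hspa1a stood highest on the cKO LT-HSC array. Its relative level was 0.489 on the cKO LT-HSC array and 0.230 on the WT LT-HSC array, and 0.239 on the cKO MPP array and 0.312 on the WT MPP array. The cKO LT-HSC array was apart from the other 3, which lay closer to each other. The cKO minus WT difference was 1.09 ± 0.22 in LT-HSC and -0.38 ± 0.24 in MPP. Hspa1a was also the 1 member higher in LT-HSC than in MPP within cKO (1.03 ± 0.23), while in WT the difference was -0.44 ± 0.23. After normexp and quantile normalization, cKO minus WT in LT-HSC was 0.51 and LT-HSC minus MPP in cKO was 0.50. Both of these values fell short of 1.5-fold. The probe was dim: its processed signals ran from 42.5 to 99.6, against 12.5 to 15.4 for the lowest signal well above background on the arrays.

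Hspa8, the constitutive cytosolic Hsp70, followed the population more than the genotype. At the brightest probe (mm9 chr9:40611142-40611201) its relative level was 51.4 on the cKO LT-HSC array and 42.9 on the WT LT-HSC array, against 89.2 on the cKO MPP array and 101.2 on the WT MPP array. Both LT-HSC arrays lay below both MPP arrays, with LT-HSC minus MPP at -0.80 ± 0.20 in cKO and -1.24 ± 0.20 in WT. The cKO minus WT difference was 0.26 ± 0.20 in LT-HSC and -0.18 ± 0.20 in MPP, the second within the scanner error. The other probes of Hspa8 gave the same directions, with cKO minus WT in LT-HSC spanning 0.26 to 0.45 over the 3 probes and LT-HSC minus MPP in cKO spanning -0.80 to -0.31.

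Hsph1 (Hsp110), a nucleotide exchange factor for Hsp70, was the gene with the lowest WT LT-HSC level relative to its other arrays. Its brightest probe (mm9 chr5:150419744-150419803) had a relative level of 44.0 on the cKO LT-HSC array and 22.5 on the WT LT-HSC array, and of 52.9 on the cKO MPP array and 56.0 on the WT MPP array. The other arrays lay nearer each other and WT LT-HSC lay below them. The cKO minus WT difference was 0.97 ± 0.20 in LT-HSC and -0.08 ± 0.20 in MPP, and LT-HSC minus MPP was -0.26 ± 0.20 in cKO and -1.32 ± 0.20 in WT. At the other probe cKO minus WT in LT-HSC was 0.77 and in MPP 0.04, so the sign in MPP differed between probes, both values lying within the scanner error.

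Dnajb1 (Hsp40), a J-domain partner of Hsp70, varied least of the 9 genes over the 4 arrays, by 0.34 on the log2 scale. Its relative level was 39.8 on the cKO LT-HSC array and 39.3 on the WT LT-HSC array, and 40.2 on the cKO MPP array and 49.9 on the WT MPP array. Only WT MPP stood above the other arrays by more than the scanner error, and cKO minus WT was 0.02 ± 0.20 in LT-HSC and -0.31 ± 0.20 in MPP.

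Both cytosolic Hsp90 genes were lower in LT-HSC than in MPP. Hsp90ab1, the constitutive form, had a relative level of 179.4 on the cKO LT-HSC array and 155.8 on the WT LT-HSC array, against 287.9 on the cKO MPP array and 328.1 on the WT MPP array. LT-HSC minus MPP was -0.68 ± 0.20 in cKO and -1.07 ± 0.20 in WT, whereas cKO minus WT was 0.20 ± 0.20 in LT-HSC and -0.19 ± 0.20 in MPP. For Hsp90aa1, the stress-inducible form, the relative level was 26.7 on the cKO LT-HSC array and 26.1 on the WT LT-HSC array, against 38.7 on the cKO MPP array and 42.7 on the WT MPP array. The 2 genotypes lay within the scanner error of each other in both populations, at 0.03 in LT-HSC and -0.14 in MPP, and LT-HSC minus MPP was -0.54 ± 0.20 in cKO and -0.71 ± 0.20 in WT.

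The mitochondrial chaperonin Hspd1 (Hsp60) and its lid Hspe1 (Hsp10), which share the promoter region shown above, kept the same order of the 4 arrays. Hspd1 had a relative level of 12.4 on the cKO LT-HSC array and 9.76 on the WT LT-HSC array, against 18.7 on the cKO MPP array and 23.9 on the WT MPP array. Its cKO minus WT difference was 0.34 ± 0.20 in LT-HSC and -0.35 ± 0.20 in MPP, both past the scanner error and of opposite sign. LT-HSC minus MPP for Hspd1 was -0.60 in cKO and -1.29 in WT. Hspe1 at its brightest probe (mm9 chr1:55148026-55148085) had a relative level of 72.3 on the cKO LT-HSC array and 61.8 on the WT LT-HSC array, against 115.8 on the cKO MPP array and 133.4 on the WT MPP array. Its LT-HSC minus MPP difference was -0.68 in cKO and -1.11 in WT, and cKO minus WT was 0.23 in LT-HSC and -0.20 in MPP.

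The Hspe1 probes show how far a difference depends on the oligonucleotide. One probe (mm9 chr1:55148023-55148082) overlaps the brightest over 57 bases and differs from it there by 1 substitution, C12T, counted from the 5′ end of the brightest probe, with the other probe's base first. It gave cKO minus WT of 0.03 in LT-HSC and -0.12 in MPP, and LT-HSC minus MPP of -0.78 in cKO and -0.93 in WT. The third probe gave 0.05, -0.24, -0.38 and -0.66 for the same comparisons. The direction was the same at all 3 probes in each comparison, and cKO minus WT in LT-HSC exceeded the scanner error at the brightest probe alone.

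Hspa5 (BiP), the Hsp70 of the endoplasmic reticulum, was the 1 member lower in cKO in both populations. Its relative level was 20.9 on the cKO LT-HSC array and 26.1 on the WT LT-HSC array, and 22.1 on the cKO MPP array and 29.9 on the WT MPP array. Both cKO arrays lay below both WT arrays, with cKO minus WT at -0.32 ± 0.20 in LT-HSC and -0.44 ± 0.20 in MPP. LT-HSC minus MPP was within the scanner error in both genotypes, at -0.08 in cKO and -0.19 in WT.

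**Figure D1:**
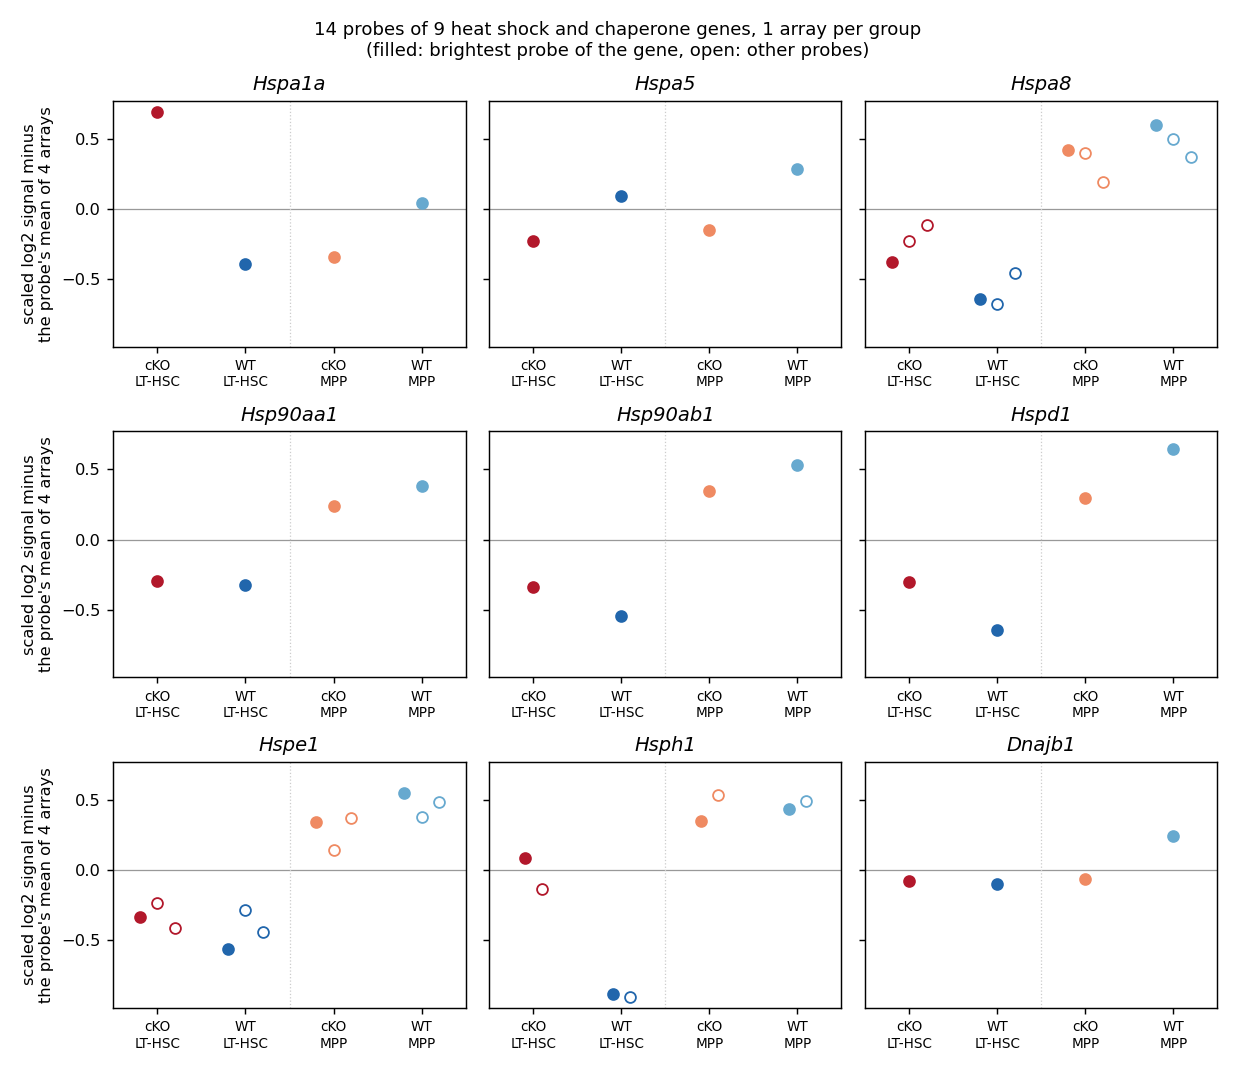
Scaled log2 signal of the 14 probes of 9 genes on each array, as the difference from the probe's own mean over the 4 arrays (y axis, log2); filled points are the brightest probe of a gene and open points its other probes, with cKO left of WT for LT-HSC and then for MPP. Hspa1a stands highest on the cKO LT-HSC array, Hspa5 is lower on both cKO arrays, and Hspa8, Hsp90ab1, Hspd1, Hspe1 and Hsph1 are lowest on the WT LT-HSC array.

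Within LT-HSC, 2 of 9 members were higher in cKO than in WT by 1.5-fold or more (Hspa1a and Hsph1) and 0 were lower, against a background of 19.3% of genes higher and 14.5% lower among 24116 genes well above background on both arrays. A share of 2 in 9 is near the background. Counting any size, 8 of 9 members were above 0, and their median was 0.23 against 0.12 for all genes, a difference of 0.11 that is small beside the interquartile range of all genes (0.71). The share of all genes above 0 was not counted. After quantile normalization Hsp90aa1 was at -0.054 and Dnajb1 at -0.11. Only Hspa1a exceeded 2-fold, where the background was 9.22% higher.

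Within MPP, 0 of 9 members differed by 1.5-fold in either direction, where 6.62% of 22387 genes were higher and 7.54% lower. All 9 members were below 0 in cKO minus WT, from -0.44 (Hspa5) to -0.08 (Hsph1), with a median of -0.20 against -0.06 for all genes. The share of all genes below 0 was not counted. The members within the scanner error were Hspa8, Hsp90aa1, Hsp90ab1 and Hsph1, and Hspe1 lay at it. After quantile normalization 2 of these values were above 0, Hsp90aa1 at 0.0035 and Hsph1 at 0.037.

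Between the populations the members differed more. In cKO, 4 of 9 members were lower in LT-HSC than in MPP by 1.5-fold or more (Hspa8, Hsp90ab1, Hspd1 and Hspe1) and 1 was higher (Hspa1a), against a background of 19.0% of 23368 genes lower and 13.8% higher. The members' median was -0.54 against -0.08 for all genes. In WT, 6 of 9 were lower (Hspa8, Hsp90aa1, Hsp90ab1, Hspd1, Hspe1 and Hsph1) and 0 were higher, against 32.8% lower and 16.2% higher among 22389 genes, with a median of -1.07 against -0.20. The 4 genes lower in cKO were all among the 6 lower in WT. Among the 21527 genes well above background on all 4 arrays, 4158 were lower in cKO and 7101 in WT. Of these, 2695 were lower in both, so such overlap was common among all genes. Scaling mattered to these counts. In cKO the lower count was 1 when the scaling percentile came from the probes that were detected on every array and 0 after quantile normalization, and the median moved to -0.24 after quantile normalization. In WT the median moved to -0.55 after quantile normalization, and Hspa5 and Dnajb1 turned to 0.32 and 0.23.

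The background itself leaned with the scaling. Of the genes past 1.5-fold, the share that was higher was 46.8% for cKO minus WT in MPP, 42.1% for LT-HSC minus MPP in cKO and 33.1% for LT-HSC minus MPP in WT. With the percentile of the probes detected on every array these shares were 57.6%, 53.4% and 43.6%, and in WT the share was 45.2% after quantile normalization and 45.6% after normexp and quantile normalization. For LT-HSC minus MPP the members' median stood at -0.46 relative to the median of all genes in cKO and -0.87 in WT. After quantile normalization, which put the median of all genes in WT at -0.05 in place of -0.20, these distances were -0.17 in cKO and -0.50 in WT. For cKO minus WT in LT-HSC the median of all genes was 0.12 and, after quantile normalization, 0.0089, while the members lay 0.11 and 0.12 above it. Against genes with a mean level above their array's 75th percentile, as 8 of the 9 members had, the background was 22.7% lower in cKO and 39.5% lower in WT.

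**Figure D2:**
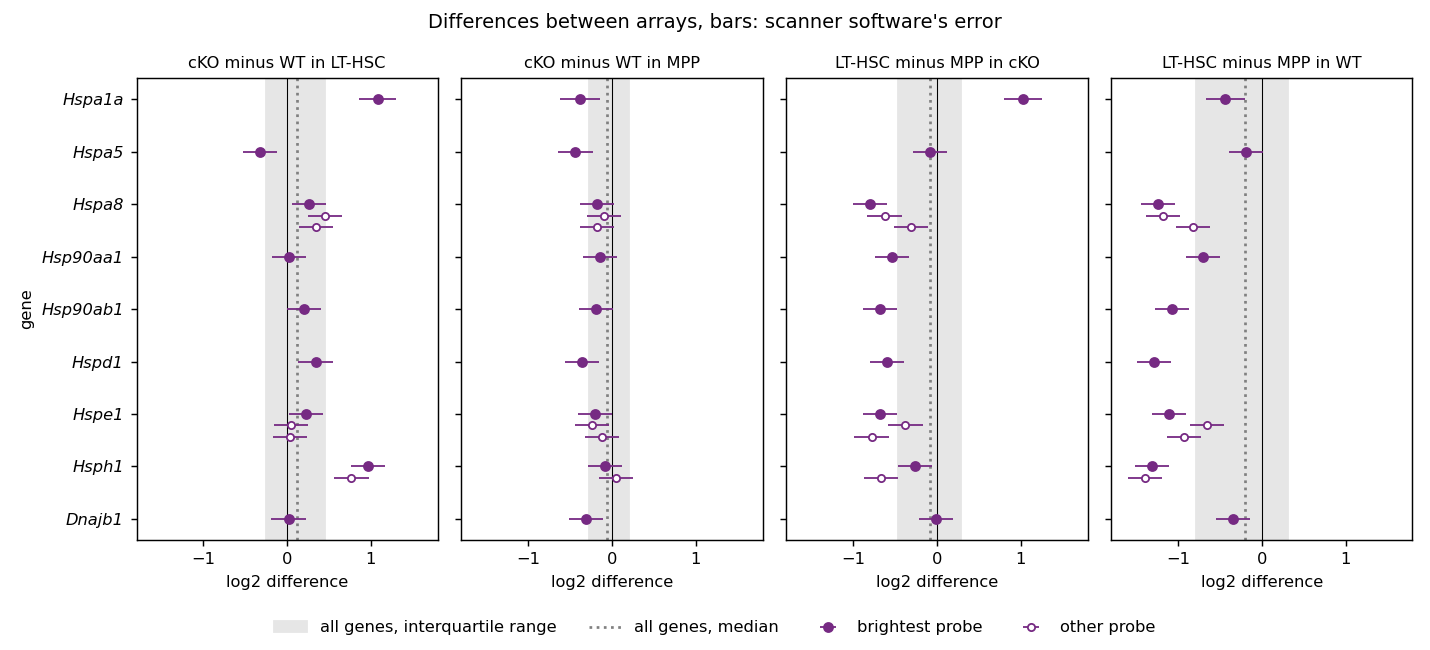
The log2 difference of each of the 9 genes in the 4 comparisons (x axis, log2), with the scanner software's error as bars and the interquartile range of all genes as a grey band. Points to the right are higher in the first-named group: 8 of 9 members lie right of 0 for cKO minus WT in LT-HSC, 9 of 9 lie left of it in MPP, and in WT 6 of 9 are lower in LT-HSC by 1.5-fold or more. The shares of all genes on either side of 0 were not counted, and 32.8% of all genes are lower in LT-HSC in WT by 1.5-fold or more.

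Setting the populations side by side, the cKO minus WT difference was higher in LT-HSC than in MPP for 9 of 9 members, from 0.12 for Hspa5 to 1.47 for Hspa1a, with a median of 0.43. Over 21527 genes well above background on all 4 arrays it was higher for 58.7%, with a median of 0.14. Hsph1 (1.06 ± 0.29) and Hspd1 (0.69 ± 0.29) followed Hspa1a (1.47 ± 0.32). After quantile normalization 7 of 9 members were above 0 with a median of 0.19, and after normexp and quantile normalization 6 of 9 with a median of 0.14, both beside medians of all genes close to 0. The same values read the other way: LT-HSC lay less far below MPP in cKO than in WT for Hspa8, Hsp90aa1, Hsp90ab1, Hspd1, Hspe1 and Hsph1. All 4 arrays enter this difference once each, so it was not tested.

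**Figure D3:**
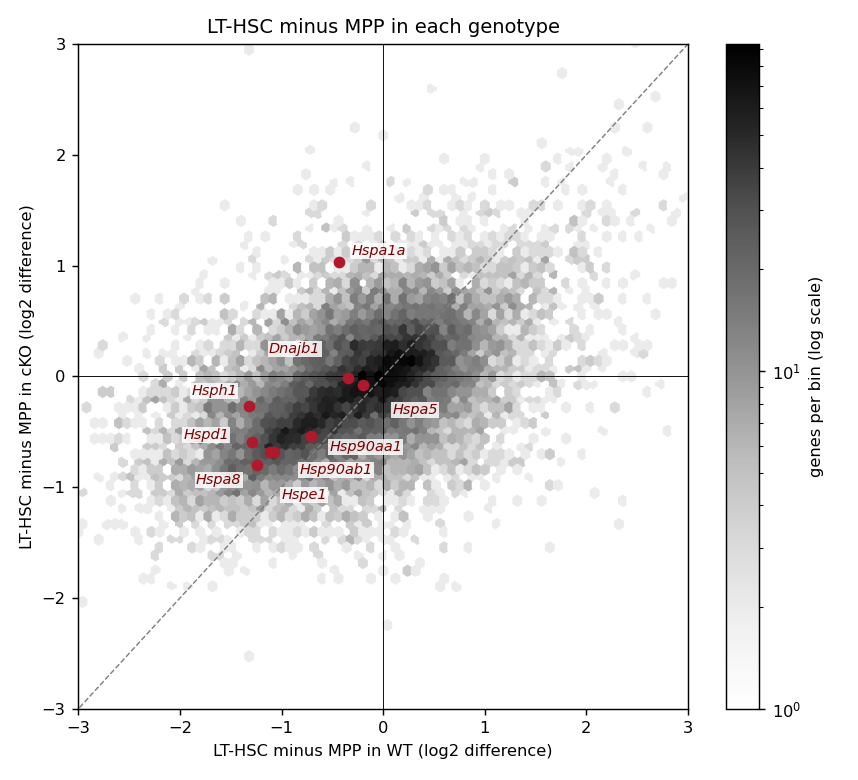
LT-HSC minus MPP in cKO (y axis, log2) against the same difference in WT (x axis, log2) for all genes well above background on all 4 arrays (grey, darker for more genes per bin) and the 9 members (red). All 9 members lie above the dashed line of equal differences, as 58.7% of all genes do, and Hspa1a is the member above 0 in cKO and below 0 in WT.

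In order of level, the arrays ran WT MPP, cKO MPP, cKO LT-HSC and WT LT-HSC from highest to lowest for 7 of 9 genes. How many of all genes ran in this order was not counted. For Dnajb1 in this order, cKO MPP, cKO LT-HSC and WT LT-HSC lay within the scanner error, and for Hsp90aa1 and Hsp90ab1 the genotypes did in each population. In MPP the genotypes of Hspa8 and Hsph1 lay within it too, and those of Hspe1 lay at it, so for these genes the order of neighbours is not resolved. Hspa5 ran WT MPP, WT LT-HSC, cKO MPP and cKO LT-HSC, and Hspa1a ran cKO LT-HSC, WT MPP, cKO MPP and WT LT-HSC.

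The listed members were then set beside 69 other chaperone genes in 4 groups. Among 29 cytosolic chaperones and co-chaperones, 6 of 26 measured on both arrays were higher in cKO LT-HSC than in WT LT-HSC by 1.5-fold or more and 0 were lower (median 0.29), where 19.3% of all genes were higher and 14.5% lower with a median of 0.12. Of those measured on both arrays the furthest were Dnajb4 at 1.16 and Dnajb6 at 1.07, both J-domain proteins, and St13 at 1.06, an Hsp70-interacting protein. Hsf2, a relative of Hsf1, was not well above background on the WT LT-HSC array and was at least 7.73-fold higher on the cKO LT-HSC array and, in WT, at least 7.73-fold lower in LT-HSC than in MPP. Hsf1, the transcription factor of the heat shock response, was at 0.53 in LT-HSC and -0.04 in MPP. In MPP 1 of 27 was lower, the Hsp70 co-chaperone Bag3 at -0.91, and 0 were higher (median -0.17), beside 7.54% lower and 6.62% higher among all genes. For LT-HSC minus MPP, 10 of 27 were lower in cKO (median -0.43, all genes 19.0% lower), led by Dnaja2 at -0.89 (another probe -1.13), Hspbp1 at -0.87 and Fkbp4 at -0.87. In WT 20 of 26 were lower (median -1.11, all genes 32.8% lower), led by Hspbp1 at -2.02, St13 at -1.97 and Bag2 at -1.65. Hsf1 was at -0.27 in cKO and -0.83 in WT for the same difference. The small heat shock gene Hspb1 had no probe well above background on any array.

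The 8 mitochondrial chaperones and proteases split in LT-HSC, with 4 higher and 2 lower in cKO than in WT (median 0.40), against 19.3% higher and 14.5% lower among all genes. Grpel1, a nucleotide exchange factor of the mitochondrial Hsp70, was at 2.34, the protease subunit Clpp at 1.32 and Grpel2 at -1.14. Another probe of Grpel2 gave 0.28 in place of -1.14. Hspa9, the mitochondrial Hsp70 itself, was at 0.02. In MPP 1 of 8 was lower (Clpx, the unfoldase partner of Clpp, at -0.66) and 0 were higher (median -0.38), beside 7.54% of all genes lower and 6.62% higher. Relative to MPP, 5 of 8 were lower in LT-HSC in cKO (median -0.81, all genes 19.0% lower), with Grpel2 at -1.34 (its other probe -0.10) and the protease Lonp1 at -1.18, and 6 of 8 in WT (median -1.43, all genes 32.8% lower), with Grpel1 at -3.18 and the mitochondrial Hsp90 Trap1 at -2.17. Hspa9 was at -0.79 in cKO and -1.25 in WT, near the values of its chaperonin partners Hspd1 and Hspe1.

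The 18 genes of the endoplasmic reticulum set, to which Hspa5 is the central partner, differed in direction among themselves. In LT-HSC 5 were higher and 1 lower in cKO than in WT (median 0.28), against 19.3% and 14.5% of all genes with a median of 0.12: the Hsp70 relative Hspa13 at 1.95 and the disulphide isomerases Pdia4 at 1.42 and P4hb at 1.10 led, and Dnajb9 was at -0.69. In MPP 0 of 18 passed 1.5-fold in either direction (median -0.12), where 6.62% of all genes were higher and 7.54% lower. Hsp90b1 (Grp94), the Hsp90 of this compartment, was at 0.04 in LT-HSC and -0.06 in MPP. Relative to MPP, 7 of 18 were lower in LT-HSC in cKO (all genes 19.0%) and 3 were higher (all genes 13.8%): the unfolded protein response factors Xbp1 at 1.14 and Ddit3 (CHOP) at 1.08, and Dnajb9 at 1.00. In WT 12 of 18 were lower (all genes 32.8%) and 4 were higher (all genes 16.2%), the lower ones led by Hspa13 at -2.60 and P4hb at -2.03. The 4 higher genes in WT were Dnajb9 at 1.25, Xbp1 at 1.25, Ddit3 at 1.19 and Herpud1 at 0.79; these 4 were named after their values were seen.

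The 14 genes of the cytosolic chaperonin TRiC and of prefoldin, which fold actin and tubulin, had 1 direction in most comparisons. In cKO 9 of 14 were lower in LT-HSC than in MPP by 1.5-fold or more (median -0.75, all genes 19.0% lower), and in WT 14 of 14 were (median -1.41, all genes 32.8% lower). Cct3 was lowest in both, at -1.75 in cKO and -2.08 in WT. In LT-HSC 3 of 14 were higher in cKO than in WT (Pfdn6 at 1.24, Cct6a at 0.79 and Cct4 at 0.61) and 0 lower, with a median of 0.29. A share of 3 in 14 is near the 19.3% of all genes that were higher. In MPP 14 of 14 were below 0 without any reaching 1.5-fold (median -0.25), which 7.54% of all genes did. The share of all genes below 0 was not counted, and their median was -0.06.

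**Figure D4:**
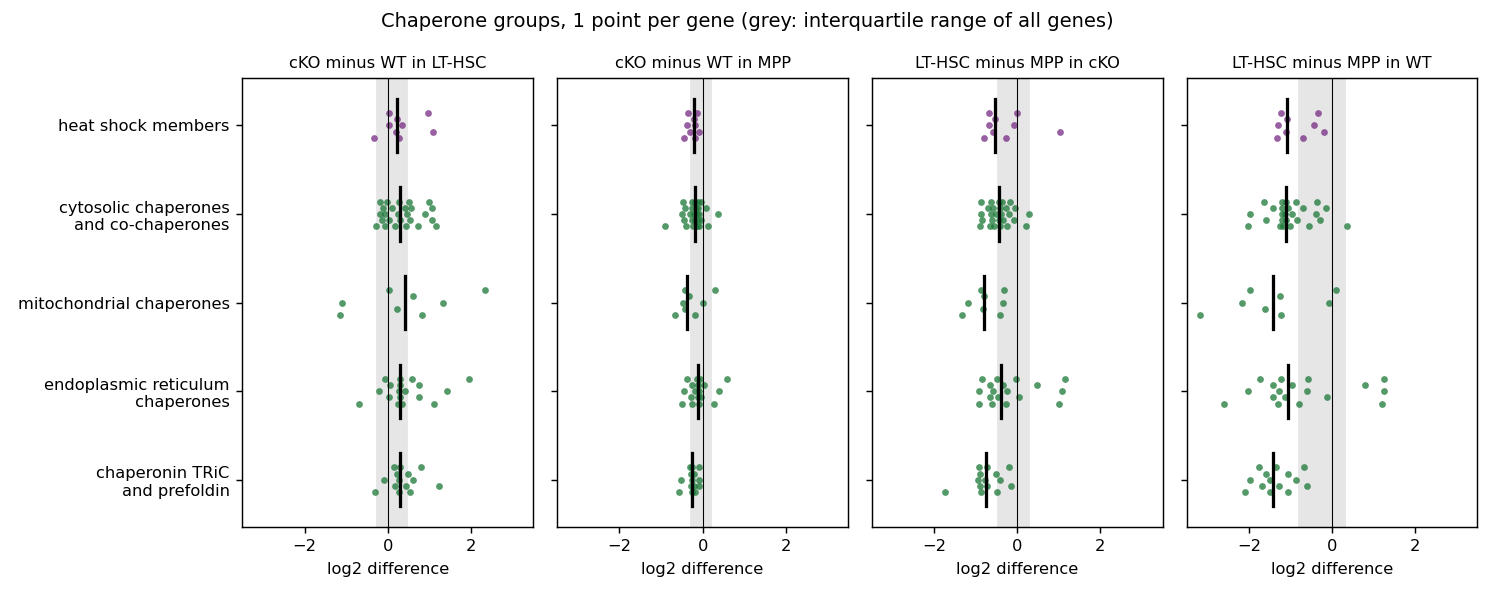
Log2 differences of every measured gene of the member list and the 4 related groups (1 point per gene, black bar for the group's median) in the 4 comparisons, with the interquartile range of all genes in grey. Group medians are between 0.23 and 0.40 for cKO minus WT in LT-HSC, between -0.81 and -0.40 for LT-HSC minus MPP in cKO, and between -1.43 and -1.05 in WT.

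A fit over all 4 arrays asked for effects of genotype or population common to the design. In limma's additive model of genotype and population (25838 genes, 1 residual degree of freedom), 0 genes passed an adjusted p of 0.05 for genotype, with 541 higher and 406 lower at an unadjusted p under 0.05, and 0 passed for population, with 1765 higher and 2328 lower. For population the members nearest the threshold were Hspa8 at -1.02 ± 0.30 (SE, limma adjusted p = 0.294), Hspe1 at -0.89 ± 0.30 and Hsp90ab1 at -0.88 ± 0.30 (limma adjusted p = 0.312 for both). For genotype the largest were Hsph1 at 0.44 ± 0.39 and Hspa5 at -0.38 ± 0.28 (limma adjusted p = 0.98 for both). On simulated data 0% of 50 genes planted with a shared genotype change of 4 on the log2 scale passed the adjustment, so a count of 0 says nothing about such changes. After normexp and quantile normalization 59 genes passed for population, and among probes well above background throughout 90 did, with 0 members in either.

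Markers of the sorted cells and of other cells moved with these comparisons. Ly6a, which encodes Sca-1, was higher in LT-HSC than in MPP (2.12 in cKO, 1.96 in WT), and Cd34 (-1.01 in cKO, -2.99 in WT) and Flt3 (-1.14 in cKO, -1.81 in WT) were lower. The gates separate the populations by CD34 and Flt3, and both carry Sca-1. Flt3 had 2 other probes, which gave 0.64 and 0.71 in cKO and 0.21 and 0.87 in WT, opposite to the brightest. For cKO minus WT in LT-HSC, 7 of 10 stem and progenitor markers were above 0 and 3 below. By 1.5-fold or more, 3 were higher (Cd34 at 1.72, Procr at 1.32 and Cd48 at 1.03) and 1 was lower, the stem cell gene Mecom at -2.69. Among all genes 19.3% were higher and 14.5% lower. Mecom was dim on the cKO LT-HSC array, with a processed signal of 26.4. Against the population label, Mecom was lower in LT-HSC than in MPP in cKO (-1.74), and Procr, another stem cell marker, was lower in WT (-1.18). The WT LT-HSC array had the highest sums of B cell, stromal and endothelial, and erythroid markers. That array was also lowest for 8 of 9 members. How many of all genes were lowest on it was not counted, and a link between these observations was not tested. Summed relative levels of 7 B cell markers were 23.2 on the cKO LT-HSC array and 58.1 on the WT LT-HSC array, and 1.76 on the cKO MPP array and 2.22 on the WT MPP array, with 7 of 7 lower in cKO LT-HSC than in WT LT-HSC. For 7 stromal and endothelial markers the sums were 5.29 on the cKO LT-HSC array and 30.3 on the WT LT-HSC array. They were 3.33 in cKO MPP and 3.78 in WT MPP. Of the 7, 5 were lower in cKO LT-HSC than in WT LT-HSC and 2 higher, Pecam1 at 2.40 and Cdh5 at 0.18. Cxcl12 made most of the WT LT-HSC sum, with a processed signal of 5118.3 beside 428.2 for Col1a1, the next. The 8 macrophage markers summed to 13.1 in cKO LT-HSC and 12.9 in WT LT-HSC, and to 55.6 in cKO MPP and 22.6 in WT MPP, with 8 of 8 higher in cKO MPP than in WT MPP. The 6 erythroid markers summed to 22.8 in cKO LT-HSC and 53.0 in WT LT-HSC. They summed to 18.3 in cKO MPP and 15.8 in WT MPP. Hba-a1 made most of these sums, with a processed signal of 11147 on the WT LT-HSC array beside 237.5 for Alas2, the next. Sums of 6 neutrophil markers were 231.7 in cKO LT-HSC and 187.7 in WT LT-HSC, and 182.5 in cKO MPP and 145.0 in WT MPP, with 4 of 6 higher in cKO MPP than in WT MPP by 1.5-fold or more. For 6 T and NK cell markers the sums were 32.9 in cKO LT-HSC and 31.0 in WT LT-HSC. They were 30.0 in cKO MPP and 30.8 in WT MPP. Nkg7 made most of each of these sums, with processed signals from 4145.9 to 5341.7. The T and NK medians of LT-HSC minus MPP were 2.28 in cKO (4 markers measured on both arrays) and 2.27 in WT (3 markers). The part of these cells in the members' values was not tested. Igll1, Ebf1, Lepr and Cdh5 were not well above background on either MPP array.

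Immediate early genes, which cell handling can induce, also differed between the groups. All 10 (Fos, Jun, Egr1 and others) were lower in cKO in both populations, with medians of -0.996 in LT-HSC and -0.934 in MPP. By 1.5-fold or more, 8 were lower in LT-HSC (all genes 14.5%) and 7 in MPP (all genes 7.54%). Their summed relative levels were 274.7 on the cKO LT-HSC array and 526.4 on the WT LT-HSC array, and 181.5 on the cKO MPP array and 377.6 on the WT MPP array. In MPP all 9 members were below 0 as well, with a median of -0.20 (all genes -0.06), and in LT-HSC their median was 0.23 (all genes 0.12). With 1 array per group, genotype and cell handling cannot be told apart for these genes. Any part of cell handling in the members' values was not tested.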

How the data were processed

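The authors hybridised Cy3-labelled RNA of each group to 1 array of a 60k Agilent mouse design (028005, probe coordinates on mm9, per the file headers), and all 4 arrays lay on 1 slide and 1 scan. The deposited scanner tables hold spot intensity on a linear scale, background-subtracted and detrended within each array, by Feature Extraction, version 10.7.3.1 in the headers (9.5.3 per the submitters' processing notes). Flags of the scanner software, deposited as a score of 0 or 1, mark outliers, saturation and spots well above background. The series table deposited by the authors holds a ratio per probe relative to its own level over the arrays; its direction followed the scanner values and the rule of its scaling is unknown.

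Non-control spots (59305 per array, 137 to 151 left out as outliers) were put on the log2 scale, the array's 75th percentile was subtracted and spots of a probe were averaged. Between 62.5% and 70.5% of spots were well above background and 0 were saturated; the number of arrays limits the precision. Probe names were updated through the GRCm38.p6 table, with 26762 probes matched by accession, 3819 by symbol and 639 by an older symbol, and 24461 keeping the file's name. A gene was its brightest probe among those well above background on at least 1 array (28286 genes). Differences of 1.5-fold or more were counted. limma 3.58.1 in R 4.3.3 was run on 25838 genes detected on at least 2 arrays, with Benjamini-Hochberg adjustment, and tested on simulated data. Alternatives were 4 other scalings (percentile of probes detected on every array, quantile, normexp with an offset of 50 and quantile, the authors' series table), 2 probe filters, averaging a gene's probes, and a 2-fold threshold. The genes named outside the members were Hsf1, Hspb1, Hspa9 and Hsp90b1 and up to 3 per list and comparison with the largest difference past 1.5-fold. The rule took only genes measured on both arrays, so Hsf2 was named outside it. The members and gene lists were chosen with earlier results of these data known.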

Additional observations from a re-analysis of the deposited data

Results flagged for a closer look

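For 8 of 9 members, cKO minus WT was above 0 in LT-HSC and below 0 in MPP, each from 1 array a group. The difference between the populations was not tested. The medians of all genes leaned the same way, at 0.12 in LT-HSC and -0.06 in MPP. The share of all genes with this pair of signs was not counted, and other scalings turned some members' signs, as given below. Hspa1a was at 1.09 in LT-HSC and -0.38 in MPP, and Hsph1 at 0.97 in LT-HSC and -0.08 in MPP. Hspd1 was at 0.34 in LT-HSC and -0.35 in MPP, Hspa8 at 0.26 in LT-HSC and -0.18 in MPP, Hspe1 at 0.23 in LT-HSC and -0.20 in MPP, and Hsp90ab1 at 0.20 in LT-HSC and -0.19 in MPP. Hsp90aa1 was at 0.03 in LT-HSC and -0.14 in MPP, and Dnajb1 at 0.02 in LT-HSC and -0.31 in MPP. Values of about 0.20 or less lie within the scanner error. Hspa1a also had opposite signs for LT-HSC minus MPP, at 1.03 in cKO and -0.44 in WT, again untested.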

How the results depend on the processing

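No paired analysis was possible because each group had 1 array, and leaving out an array ends its comparison. Over the 9 members, 4 comparisons and 7 alternatives, 207 of 252 values kept their direction and moved by less than the scanner error, 26 moved by more and 19 turned. Many of the 207 could not have moved. The probe filters left every value as it was, because all 14 member probes were well above background on all 4 arrays. Averaging a gene's probes could not change a gene without another probe. The count of 207 is therefore no measure of robustness. The turns came with other scalings and the cause was not tested. After quantile normalization, cKO minus WT in LT-HSC was -0.054 for Hsp90aa1 and -0.11 for Dnajb1, and in MPP 0.0035 for Hsp90aa1 and 0.037 for Hsph1; LT-HSC minus MPP in cKO was 0.18 for Hspa5, 0.041 for Hsph1 and 0.29 for Dnajb1, and in WT 0.32 for Hspa5 and 0.23 for Dnajb1. After normexp and quantile normalization, cKO minus WT in LT-HSC was -0.050 for Hsp90aa1 and -0.16 for Dnajb1, and in MPP 0.026 for Hsph1; LT-HSC minus MPP in cKO was 0.16 for Hspa5, 0.091 for Hsph1 and 0.25 for Dnajb1, and in WT 0.27 for Hspa5 and 0.25 for Dnajb1. With the percentile of probes detected on every array, LT-HSC minus MPP in cKO was 0.023 for Hspa5 and 0.087 for Dnajb1.

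The count of members higher in cKO LT-HSC, 2, was 1 after normexp and quantile normalization, with Hspa1a at 0.51, and 1 at 2-fold. LT-HSC minus MPP in cKO for Hspa1a was 0.50 after normexp and quantile normalization. For LT-HSC minus MPP in cKO, the count of members lower, 4, was 1 with that percentile and 0 after quantile normalization, after normexp and quantile normalization and at 2-fold; the count higher, 1, was 0 after normexp and quantile normalization. The members' median for LT-HSC minus MPP was -0.24 in cKO and -0.55 in WT after quantile normalization, and -0.18 in cKO and -0.55 in WT after normexp and quantile normalization. The median difference between the populations in cKO minus WT, 0.43, was 0.14 after normexp and quantile normalization. The shared population effect, with 0 genes passing, gave 59 genes after normexp and quantile normalization and 90 among probes well above background on all 4 arrays. A background of genes above the 75th percentile, chosen after seeing the data, held 2.88% higher and 3.84% lower for cKO minus WT in MPP. The dim Hspa1a probe has the widest scanner error.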
